A study of Mus musculus with 4 samples.

Results

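Chromosome 11 carried more peaks of SSRP1 per unit of length than any other mouse autosome in either of 2 ChIP-seq peak lists. Its members are all peaks that the lists place on chromosome 11. Replicate 1's list holds 410 of them among 5011 peaks, and replicate 2's list 217 among 2342. The chromosome was taken up because of this density, so the density and the window counts that follow from it are a description and were not tested.

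SSRP1 and its partner SPT16 form FACT, a complex that handles histones. FACT loosens the contacts between the histones of a nucleosome so that RNA and DNA polymerases can pass, and it helps to restore the nucleosome behind them. In embryonic stem cells it is found at many transcribed genes, and chromosome 11 is known as one of the gene-rich chromosomes of the mouse.

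The cells were E14, an established line of mouse embryonic stem cells, grown in medium with 15% serum and leukemia inhibitory factor (LIF), a cytokine that keeps them undifferentiated. All samples were of this 1 line, with no other genotype or treatment. Chromatin of cells fixed for 10 min in 1% formaldehyde was precipitated with 5 µg of a BioLegend antibody against SSRP1 in 2 ChIP samples, and 2 input samples, sequenced without precipitation, carry the same replicate numbers. Values of the inputs were not analysed here. The labels leave unsaid whether the replicates were separate cultures, so the spread between these 2 lists may be technical. Each p-value below rests on counts of peaks taken as independent and does not measure the spread between replicates. Neighbouring peaks are not independent, and 51.2% (replicate 1) and 61.3% (replicate 2) of chromosome 11's peaks had another summit of their list within 10 kb.

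Depth was read from the lists themselves, since they give no read totals. A summit, the highest point of a peak, had a median of 19 recovered ChIP fragments in replicate 1's chromosome 11 peaks (range 11 to 112) and of 42 in replicate 2's (range 27 to 197). Over the whole lists the medians were 19 and 44. Fold enrichment is the authors' ratio of ChIP signal at the summit over the local background, and q is the authors' false discovery rate for the peak. The largest q on the chromosome was 0.0445 for replicate 1 and 0.0281 for replicate 2. Positions are those of the build mm9, counted from 1. A gene annotation of that build was not used here, so positions carry no gene, exon, intron or UTR names.

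The first question was how far chromosome 11 stood apart in number and kind of peaks. Its peaks spanned 118 Mb, which gave 3.48 peaks per Mb for replicate 1 and 1.84 for replicate 2. The other 18 autosomes together had 2.00 and 0.908 per Mb, so chromosome 11 was 1.74 and 2.03 times as dense. Chromosome 17 came next, with 3.29 and 1.64 peaks per Mb. With replicate 2's list limited to peaks of −log10 q of 5 or more, or of 10 or more, chromosome 11 was in place 2 of 19.

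Counted per gene the chromosome did not stand at the top. It has 1609 protein-coding genes in the RefSeq table of assembly GRCm38.p6, the third highest number among the 19 autosomes. Replicate 1's list held 25.5 peaks per 100 of these genes, against 23.6 on the other autosomes, and was in place 9 of 19. The autosomes ranged from 17.2 on chromosome 16 to 30.04 on chromosome 12. Replicate 2's list held 13.5 per 100 genes, against 10.7, and was in place 4, with a range from 7.87 on chromosome 14 to 17.4 on chromosome 13. The excess over the other autosomes was thus 1.08 and 1.26 times per gene, against 1.74 and 2.03 times per Mb.

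**Figure D1:**
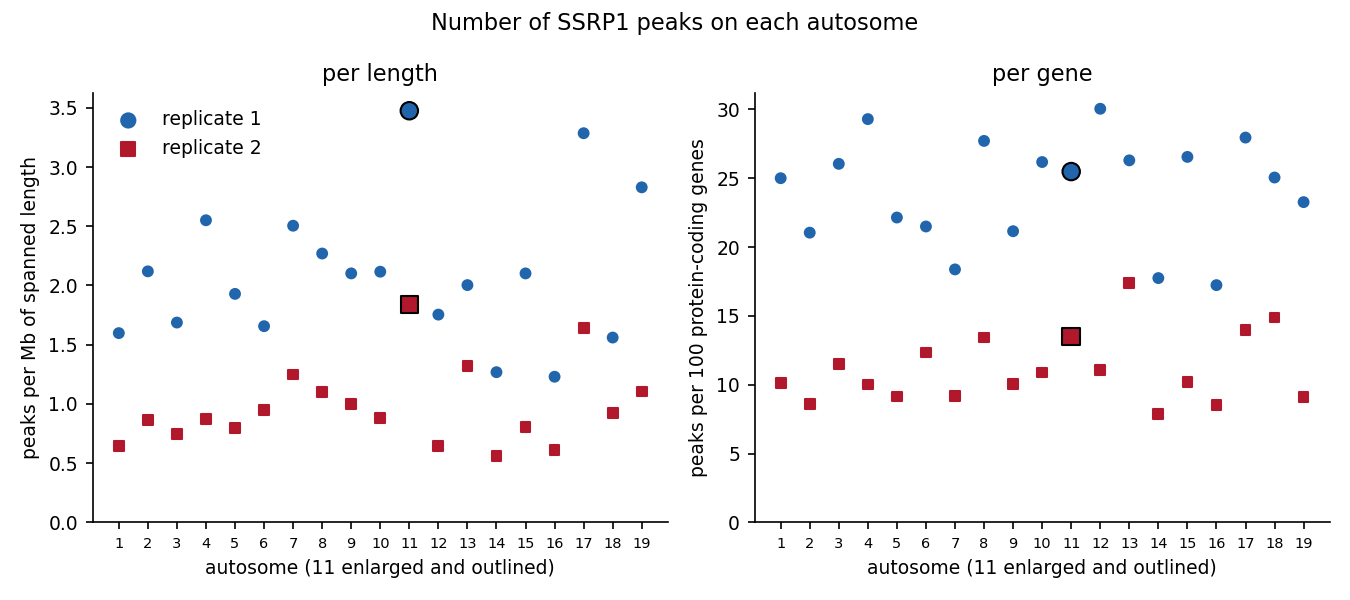
Peaks of each autosome per Mb of the length spanned by the peaks (left) and per 100 protein-coding genes (right), with replicate 1 as circles, replicate 2 as squares and chromosome 11 enlarged. Chromosome 11 is the highest on the left, at 3.48 and 1.84 per Mb, and lies within the range of the other autosomes on the right, at 25.5 and 13.5 per 100 genes.

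The typical peak had a fold close to that elsewhere. The chromosome's highest folds were below those of most other autosomes, in places 16 (replicate 1) and 13 (replicate 2) of 19. The median fold was 4.63 for replicate 1 (interquartile range 3.97 to 5.61) and 5.43 for replicate 2 (4.66 to 7.31), against 4.55 and 5.39 on the other autosomes. The highest folds of chromosome 11 were 17.0 (replicate 1) and 27.0 (replicate 2), where other autosomes reached 104 and 54.0. No replicate 1 peak of chromosome 11 had a fold of 20 or more, against 30 of 4506 peaks on the other autosomes. In replicate 2's list 4 of the 217 peaks did, against 62 of 2043 elsewhere, of which 26 were on chromosome 13 alone. The 4 peaks of chromosome 11, a raw count shared with chromosomes 4 and 12, put it in place 4 of 19.

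Strong calls by q-value were nevertheless somewhat more frequent in replicate 1's list. A −log10 q of 10 or more was reached by 97 of its 410 peaks, or 23.7%, where the whole list had 19.7%. The other autosomes had 18.6%, and the odds ratio was 1.36 (Fisher's exact test, two-sided, p adjusted over 8 tests by the Benjamini-Hochberg method 0.0306). In replicate 2's list 65 of 217 peaks, or 29.95%, reached it, with 30.6% over the whole list and 29.6% on the other autosomes (odds ratio 1.02, adjusted exact p = 0.938). The replicate 1 difference no longer passed without the window from 33 to 34 Mb, with X and Y among the other chromosomes, or at a −log10 q of 20 or more, where the odds ratios were 1.33, 1.29 and 1.43 and the adjusted exact p 0.0539, 0.0889 and 0.102.

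Broad peaks followed a similar course. At 1 kb or more were 33 of 410 peaks in replicate 1's list, or 8.05% (exact 95% interval 5.61 to 11.1), against 5.08% on the other autosomes and 5.53% in the whole list (odds ratio 1.63, adjusted exact p = 0.0306). Replicate 2's list had 35 of 217, or 16.1%, against 11.7% on the other autosomes and 12.3% in the whole list (odds ratio 1.44, adjusted exact p = 0.102). With the window from 33 to 34 Mb left out (7.85%, odds ratio 1.59, adjusted exact p = 0.0506) or at 2 kb or more (10 peaks, 2.44% against 1.42%, odds ratio 1.74, 0.176), the replicate 1 difference missed the threshold. The median width was 326.5 bp for replicate 1 and 353 bp for replicate 2, where the other autosomes had 296 and 345 bp.

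The broad peaks made up much of the covered sequence and most of them were found in both lists. Those of 1 kb or more covered 31.0% of the 205 kb under replicate 1's peaks and 48.1% of the 134 kb under replicate 2's. Of the 33 in replicate 1's list 28 overlapped a peak of replicate 2, and of the 35 in replicate 2's list 30 overlapped a peak of replicate 1. Among peaks of all widths in the whole lists 27.7% and 54.9% did. Broad peaks of the other autosomes were not counted for this, and width enters the overlap itself, so the counts describe chromosome 11 alone. The widest peak of replicate 1's list ran from 69480994 to 69485849, which is 4856 bp, with a fold of 9.20. The next were 3682 bp from 62366144, 3608 bp from 115882250, 3488 bp from 62416279 and 3401 bp from 117826416, the last being the only 1 of these 5 with no partner in replicate 2. The widest of replicate 2's list ran from 62416371 to 62422324, which is 5954 bp, with a fold of 10.6, and overlapped the fourth of replicate 1's. It was followed by 3141 bp from 100181917, 3067 bp from 115881181, 2829 bp from 33049488 and 2712 bp from 97636785, all of them shared.

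Peaks were spread unevenly along the chromosome. The part from 60 Mb to the distal end held 284 of replicate 1's 410 peaks (69.3%) and 143 of replicate 2's 217 (65.9%), in 62 of the 119 windows of 1 Mb. The part below 60 Mb held 126 and 74 peaks in 57 windows. Cut into stretches of 20 Mb, replicate 1's counts were 29, 36, 61, 85 and 72 up to 100 Mb, and 127 peaks lay beyond it. The matching counts of replicate 2 were 15, 28, 31, 45 and 41, and 57 beyond 100 Mb. The distal stretch thus held the most peaks in both lists, at 31.0% and 26.3%. It had 22 windows, where the first stretch had 17 and each of the others 20. In replicate 1's list 28 of its 127 peaks lay in the window from 120 to 121 Mb. On the number of peaks per window the lists followed each other across the 119 windows with a Pearson r of 0.81 and a Spearman rho of 0.72. Over the windows of the other autosomes these were 0.74 and 0.63, and chromosome 11 was in places 6 and 3 of 19. The values are a description because both lists come from the same genome and cell line.

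**Figure D2:**
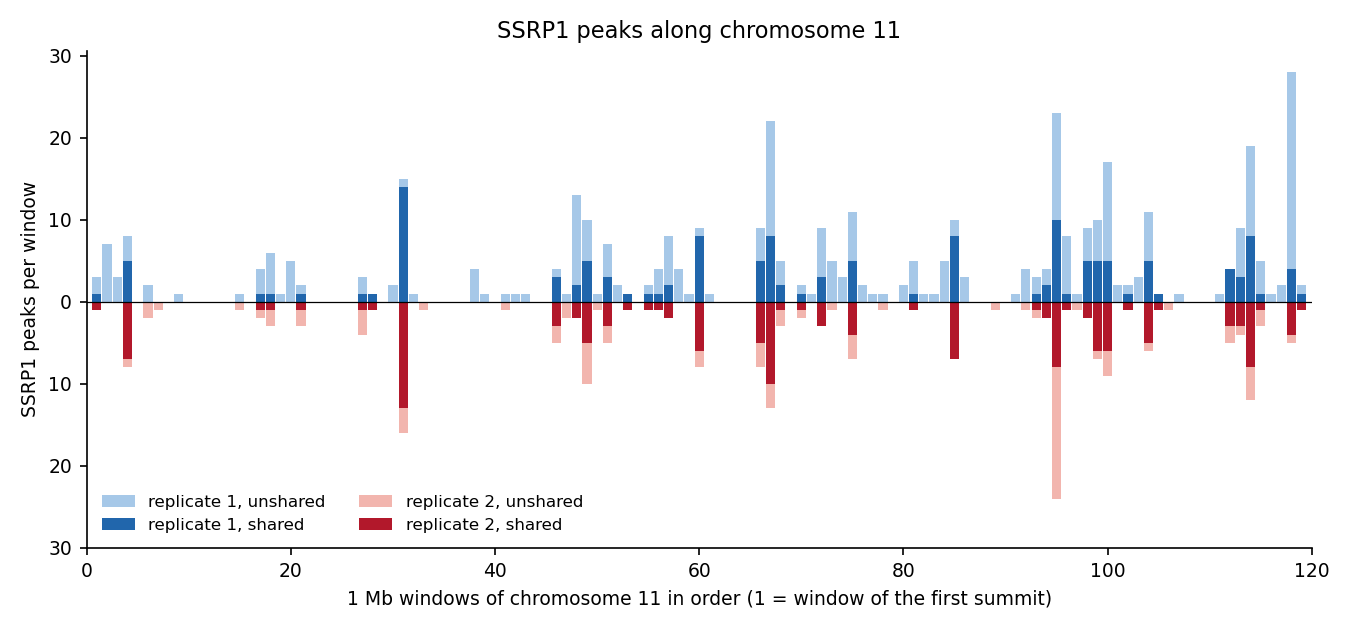
Peaks in each of the 119 windows of 1 Mb, numbered from the window that holds the first summit, at 3 to 4 Mb, so that window 31 is 33 to 34 Mb; replicate 1 is drawn upward in blue, replicate 2 downward in red, and peaks that overlap the other list in the dark shade. The dark bars are tallest at 33 to 34 Mb, where 14 of 15 and 13 of 16 peaks are shared, and the light bar near the distal end is the window with 28 replicate 1 peaks of which 4 are shared.

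A few windows held most of the peaks. Windows with 5 or more summits, called dense here, numbered 29 of 119 for replicate 1 and 17 for replicate 2, or 24.4% and 14.3% of the windows. On the other autosomes 12.97% and 4.99% of windows were dense. The dense windows of chromosome 11 contained 308 of the 410 peaks (75.1%) and 155 of the 217 (71.4%). On the other autosomes such windows contained 63.7% and 50.3%, and on chromosome 17 alone 79.4% and 68.2%. The variance of the window counts over their mean was 7.66 and 7.15, in places 9 and 7 of 19, so this unevenness was not particular to chromosome 11. Counting only shared peaks of replicate 1, 14 of 119 windows were dense, the highest number of any autosome. Chromosome 17, which is shorter, came next with 10 of 92. These windows held 68.1% of chromosome 11's shared peaks, in place 3 after 73.6% on chromosome 17 and 69.2% on chromosome 13. The 14 fullest windows were enough to hold 50% of replicate 1's peaks and the 10 fullest 50% of replicate 2's.

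The percentage of empty windows was the lowest of the 19 autosomes. No peak was found in 38 windows of replicate 1's list (31.9%) and in 65 of replicate 2's (54.6%), where the other autosomes had 48.4% and 69.0%. Neither list had a peak in 34 windows (28.6%, against 44.7%). Of these, 22 lay below 60 Mb and 12 from there on.

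The empty windows formed 5 runs of 3 or more. The runs of 5 windows were 12 to 17 Mb and 24 to 29 Mb. Runs of 4 windows stood at 36 to 40 Mb and 64 to 68 Mb, and 1 of 3 windows at 110 to 113 Mb. The longest distances between neighbouring summits of replicate 1's list were 5.83 Mb (34611387 to 40438747), 5.69 Mb (63028359 to 68715229) and 5.67 Mb (23397688 to 29072447). In replicate 2's list they were 8.82 Mb (9018972 to 17837785), 8.27 Mb (35337196 to 43609105) and 6.30 Mb (62418334 to 68719401). The gap that begins near 62 to 63 Mb was among the longest of both lists and directly precedes the dense windows at 68 to 70 Mb. The median distance between neighbours was 41.1 kb and 24.6 kb.

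The next question was how far the lists found the same sites. A peak was called shared when at least 1 bp of it overlapped a peak of the other list. On chromosome 11, 141 of replicate 1's 410 peaks were shared, or 34.4% (exact 95% interval 29.8 to 39.2), beside 27.7% for the whole list. On the other autosomes the share was 26.3% (25.02 to 27.6), and the odds ratio was 1.47 (Fisher's exact test, two-sided, adjusted p = 0.00471). In replicate 2's list 135 of 217 were shared, or 62.2% (55.4 to 68.7), beside 54.9% for the whole list and 53.3% (51.1 to 55.5) on the other autosomes (odds ratio 1.44, adjusted exact p = 0.0306). Replicate 2's share was the highest of the 19 autosomes, by a small margin over the 61.8% of chromosome 13. Replicate 1's was the third, after 47.7% on chromosome 13 and 35.8% on chromosome 17. The chromosome was chosen for its density of peaks, and overlap can depend on how densely the peaks of both lists lie. The p-values of the shared shares are therefore not free of that choice. They cannot tell a higher share from the effect of a higher density.

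**Figure D3:**
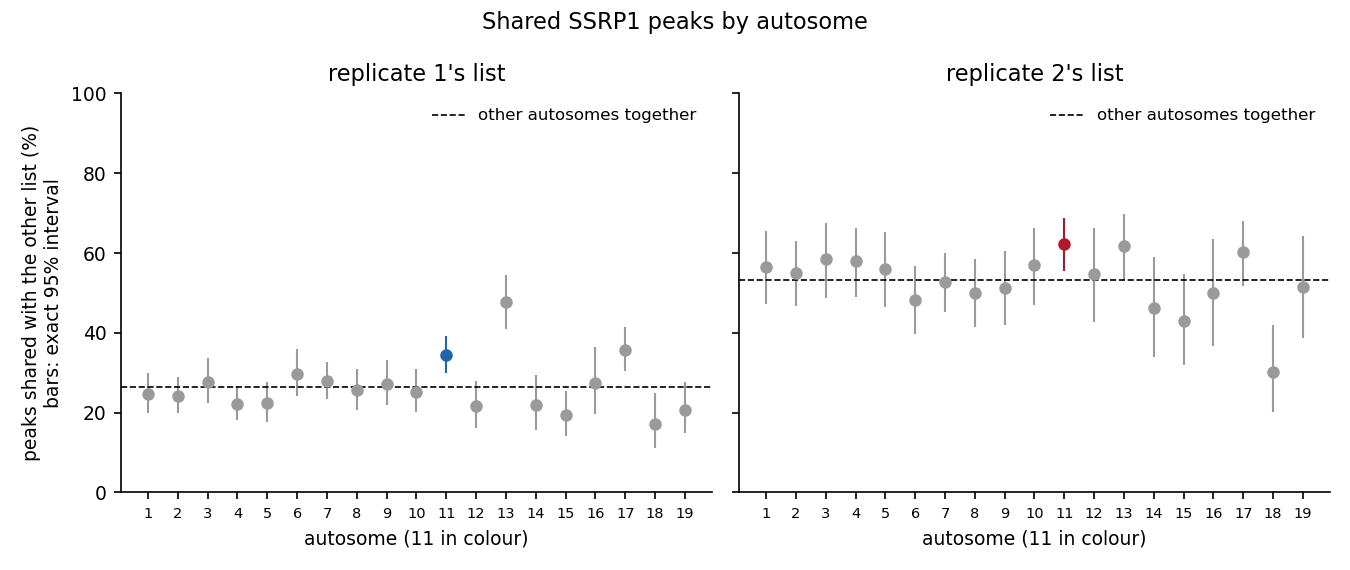
Share of each autosome's peaks that overlap a peak of the other list, in percent with exact 95% intervals, for replicate 1's list (left) and replicate 2's list (right); the broken line is the other 18 autosomes together. Chromosome 11, in colour, lies above the line in both panels, at 34.4% and 62.2%, and its interval overlaps those of several other autosomes.

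The shares differed between dense windows and the rest. In the 31 windows of chromosome 11 that were dense in either list, 126 of 316 replicate 1 peaks were shared, or 39.9% (34.4 to 45.5), against 31.0% in such windows of the other autosomes. For replicate 2 it was 120 of 180, or 66.7%, against 57.9%. In the remaining windows 15 of 94 replicate 1 peaks (16.0%) and 15 of 37 replicate 2 peaks (40.5%) were shared, against 17.7% and 43.1% on the other autosomes. Neither difference outside the dense windows passed (odds ratios 0.881 and 0.900, adjusted exact p = 0.892 and 0.938), and the intervals of 9.22 to 24.95 and 24.8 to 57.9 take in the other autosomes' shares. Whether chromosome 11's difference depends on the kind of window was not tested.

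Other definitions changed which differences passed. A rule of summits within 200 bp gave 23.9% against 19.2% for replicate 1 (odds ratio 1.32, adjusted exact p = 0.0460), which passed. It gave 45.2% against 42.3% for replicate 2 (odds ratio 1.12, adjusted exact p = 0.571), which did not. With peaks of a list within 1 kb of each other merged, the shares were 31.0% and 66.9%, against 25.4% and 57.6% on the other autosomes, and neither difference passed (odds ratios 1.32 and 1.49, adjusted exact p = 0.0729 and 0.068). With peaks of −log10 q of 5 or more neither passed either (odds ratios 1.32 and 1.37, adjusted exact p = 0.102 and 0.170), while at 10 or more replicate 2's difference did (75.4% against 56.8%, odds ratio 2.33, 0.0141) and replicate 1's did not (50.5% against 42.5%, odds ratio 1.38, 0.212). Leaving out the peaks of 33 to 34 Mb gave 32.2% (odds ratio 1.33, adjusted exact p = 0.0306) and 60.7% (1.35, 0.0911), and replicate 2's difference also missed the threshold with X and Y among the others (1.39, 0.0525).

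Sharing rose with the strength of the peak. Each list was divided by −log10 q into 4 groups of near-equal size. In the strongest group of replicate 1's list 81 of 117 chromosome 11 peaks were shared, or 69.2%, against 57.0% on the other autosomes. In the following groups 26.3%, 17.2% and 17.8% were shared, against 24.3%, 15.2% and 10.6%. In replicate 2's list the shares on chromosome 11 were 90.4%, 70.5%, 53.0% and 40.0% from the strongest group to the weakest, against 84.8%, 52.0%, 44.8% and 33.01%. Chromosome 11 had the higher share in each of the 4 groups of both lists. The common odds ratio within groups (Mantel-Haenszel) was 1.44 for replicate 1 and 1.57 for replicate 2.

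**Figure D4:**
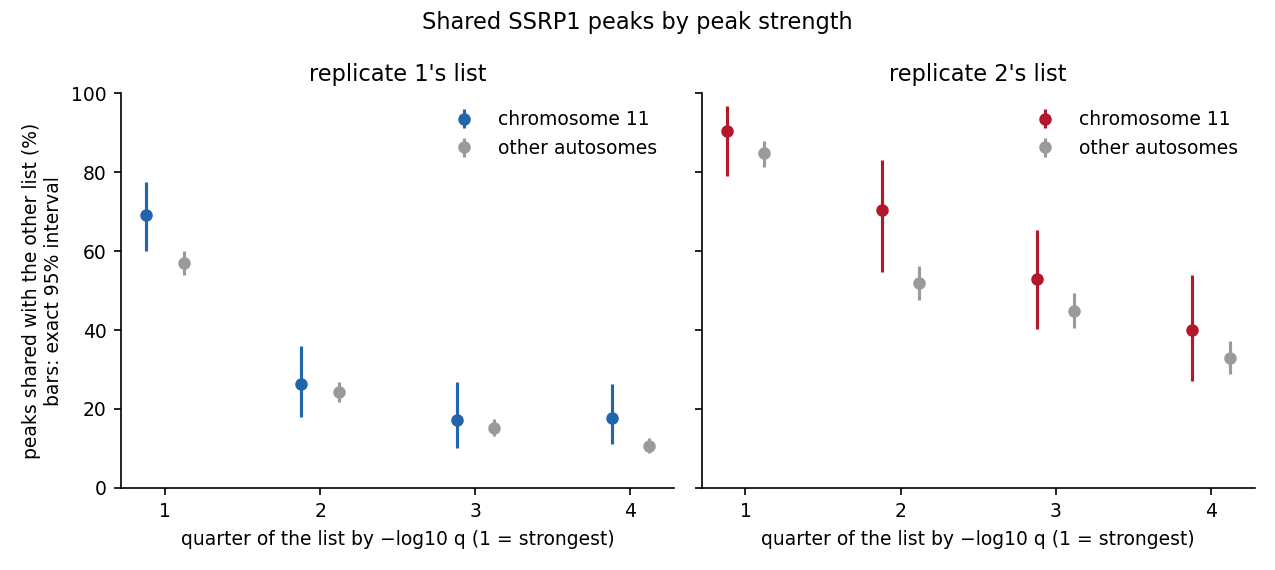
Share of peaks that overlap the other list, in percent with exact 95% intervals, in 4 groups of each list by −log10 q from the strongest (1) to the weakest (4), on chromosome 11 (colour) and the other autosomes (grey). The share falls from 69.2% to 17.8% in replicate 1's list and from 90.4% to 40.0% in replicate 2's list on chromosome 11, which lies above the other autosomes in each group.

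The 6 windows with the most shared peaks together held 98 of replicate 1's peaks (23.9%) and 80 of replicate 2's (36.9%). They contained 39.7% and 38.5% of the shared peaks. They differed in how tightly their peaks were packed, in how well the lists matched and in peak height.

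The window from 33 to 34 Mb had 15 peaks in replicate 1's list, 14 of them shared, and 16 in replicate 2's, 13 of them shared. Its replicate 1 peaks ran from 33047076 to 33437351 and came down to 5 in each list once neighbours within 1 kb were merged. The median fold was 4.68 in replicate 1 and 5.70 in replicate 2. Most peaks there had a partner in the other list, and the median folds were close to those of the whole chromosome.

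The window from 97 to 98 Mb was the fullest of replicate 2's list, with 24 peaks, and held 23 of replicate 1's. Of these, 8 (33.3%) and 10 (43.5%) were shared. Over all of chromosome 11 the shares were 62.2% for replicate 2 and 34.4% for replicate 1, and over the whole lists 54.9% and 27.7%. All peaks of the window merged to 14 and 16 sites. The median folds were 4.90 and 4.91. Of the 16 unshared peaks of replicate 2, 13 had a replicate 1 peak within 10 kb, at a median distance of 4.72 kb over the 16, while 4 of the 13 unshared peaks of replicate 1 had a replicate 2 peak that near. The window was thus dense in both lists. Its shared share was below that of the chromosome in replicate 2's list and above it in replicate 1's.

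The window from 69 to 70 Mb held 22 replicate 1 peaks, 8 of them shared, and 13 replicate 2 peaks, 10 of them shared. All 8 pairs of overlapping peaks had the higher fold in replicate 2, by a median of 0.58 on the log2 scale (SD 0.36). With recovered fragments over the genome's background in place of the folds, 4 of the 8 were higher in replicate 2 and the median was 0.04 (SD 0.39). From 116 to 117 Mb there were 19 peaks in replicate 1 and 12 in replicate 2, with 8 shared in each, and 2 of 7 pairs were higher in replicate 2 (median log2 ratio −0.31, SD 0.39). There the fragments gave the same count, 2 of 7, and a median of −0.56 (SD 0.44).

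The window from 87 to 88 Mb had the highest median folds of these 6. It had 10 in replicate 1's list, 8 of them shared, with a median fold of 7.18, and 7 in replicate 2's, all shared, with a median fold of 13.4. From 62 to 63 Mb lay 9 and 8 peaks, 8 and 6 of them shared, with median folds of 4.34 and 4.90. These merged to 3 and 4 sites, and they include the widest peak of replicate 2's list and 2 of the 5 widest of replicate 1's.

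Other windows held far more peaks of replicate 1 than of replicate 2, and 2 are described here because of their values. From 120 to 121 Mb replicate 1 had 28 peaks, the most of any window of the chromosome, and replicate 2 had 5. The 4 shared ones lay from 120204644 to 120210434, with median folds of 10.0 and 8.47. The other 24 had a median fold of 4.67 and a median of 17 fragments, and 2 of them had a replicate 2 peak within 10 kb. From 50 to 51 Mb replicate 1 had 13 peaks and replicate 2 had 2. The 11 unshared ones had a median fold of 4.92. Both medians were thus above the 4.36 of all unshared chromosome 11 peaks of that list. The median of all its chromosome 11 peaks, shared ones included, was 4.63.

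Overlapping peaks were joined into pairs, each peak with its strongest partner, to set the folds of the lists side by side. There were 126 pairs on chromosome 11. The fold was higher in replicate 2 in 80 of them, or 63.5% (exact 95% interval 54.4 to 71.9), beside 63.9% of all pairs and 65.2% on the other autosomes (odds ratio 0.928, adjusted exact p = 0.793). Taken as replicate 2 over replicate 1, the median log2 ratio was 0.22 (interquartile range −0.18 to 0.52, SD 0.56). On the fragment scale used above for 69 to 70 Mb, 35.7% of the pairs were higher in replicate 2 (41.7% on the other autosomes) and the median log2 ratio was −0.16, so the direction between the lists rests on the scale. Across the 126 pairs the folds had a Spearman rho of 0.54, and the summits of a pair lay a median of 63 bp apart. Pairs of the other autosomes had a rho of 0.47 and a median of 57.5 bp.

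**Figure D5:**
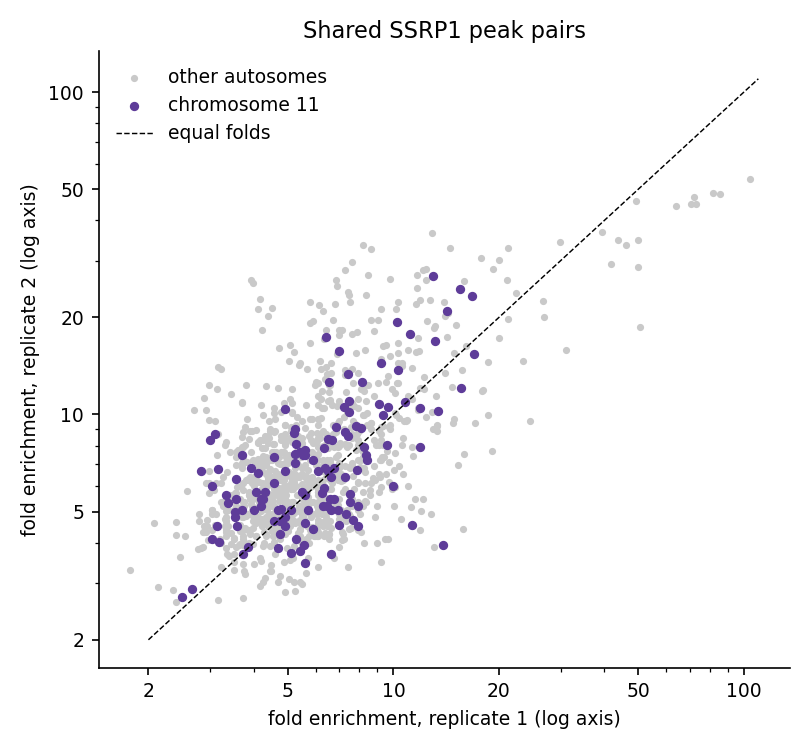
Fold enrichment of each shared pair in replicate 1 (horizontal) and replicate 2 (vertical), both on log axes, for the 126 pairs of chromosome 11 (purple) and the 1046 of the other autosomes (grey); the broken line marks equal folds. Chromosome 11's pairs lie within the main cloud, 63.5% of them above the line, and none has both folds at 20 or more.

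The 10 pairs with the highest folds in both lists reached 10.8 to 17.0 in replicate 1 and 10.5 to 27.0 in replicate 2. Their summits coincided closely, 9 of them within 50 bp, against 45.2% of all 126 pairs and 46.5% of the other autosomes' pairs. The strongest spanned 87275737 to 87277101, and its folds were 16.8 from 68 fragments for replicate 1 and 23.3 from 170 for replicate 2. By the lower of its folds it took place 29 among the 1229 pairs of the genome. Next came 115882250 to 115885857 (folds 15.5 and 24.4) and 120208540 to 120209852 (17.0 and 15.4), in places 34 and 35. The pair at 6315866 to 6317072 had folds of 14.2 and 20.9 and that at 69571522 to 69572215 had 12.95 and 27.0, the highest fold of the chromosome.

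Of the 10 strongest pairs 4 lay within 45.8 kb, between 87240235 and 87286018. Besides the strongest these were the pairs at 87262447 (folds 13.2 and 16.9), 87285217 (15.6 and 12.1) and 87240235 (11.2 and 17.7). The remaining pairs were at 101505685 (10.8 and 10.9) and 55283225 (11.9 and 10.5). Both folds were 10 or more in 13 of 126 pairs (10.3%), against 7.65% of the other autosomes' pairs. Both were 20 or more in 0 of 126, against 21 of 1046 elsewhere.

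The unshared peaks were weaker and narrower than the shared ones. In replicate 1's list the median fold was 4.36 in 269 unshared and 5.61 in 141 shared peaks, and the median width 290 and 491 bp. In replicate 2's list the folds were 4.93 in 82 unshared and 6.15 in 135 shared peaks, and the widths 267 and 463 bp. These differences were not tested, since width enters the overlap itself. Of replicate 2's unshared peaks 39 (47.6%) had a replicate 1 peak within 10 kb, while 51 (18.96%) of replicate 1's had a replicate 2 peak that near. On the other autosomes these shares were 49.2% and 21.3%, close to those of chromosome 11. The median distance to the other list was 11.1 kb and 124 kb.

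Some unshared peaks were strong in their own list. The strongest of replicate 1 was 40567542 to 40568720, with a fold of 7.81 and a −log10 q of 30.3. Its nearest replicate 2 peak was 3040 kb away, and its local background was 2.88 times that of the genome. It was followed by 69517901 to 69518217 (fold 9.94, 32.1 kb from replicate 2), 50023351 to 50024305 (fold 8.76, 115 kb), 76642043 to 76642374 (fold 4.52, 778 kb, background 5.39 times the genome's) and 106641964 to 106644731 (fold 6.42, 0.822 kb). They ranged from near misses to sites with no counterpart for megabases.

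The strongest unshared peak of replicate 2 was 108872985 to 108873237, with a fold of 10.8 and 461 kb from the nearest replicate 1 peak. The others were 20038890 to 20039359 (fold 7.61, 62.1 kb), 68937842 to 68938105 (fold 8.45, 13.3 kb), 99577525 to 99577831 (fold 4.88, 330 kb, background 3.86 times the genome's) and 97606226 to 97606453 (fold 7.77, 31.0 kb). Local background of at least 2 times the genome's was found at 71 replicate 1 peaks of the chromosome (17.3%, against 17.8% elsewhere) and 13 replicate 2 peaks (5.99%, against 9.15%). With such peaks left out, 27.7% of replicate 1's peaks were shared, against 22.4% on the other autosomes (odds ratio 1.33, adjusted exact p = 0.0607). Replicate 2's difference still passed, at 61.8% against 53.3% (odds ratio 1.41, adjusted exact p = 0.0438).

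Chromosome 11 supplied 8.18% of all replicate 1 peaks and 9.27% of all replicate 2 peaks, which is given as a description because these counts are what it was chosen by.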

How the data were processed

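SSRP1 ChIP-seq in E14 cells was represented by 2 deposited peak lists, each called separately, per the peak names in the files. The submitters' processing notes name STAR, MACS2, deepTools and mm9, with no roles. For versions, settings and controls, the sources used here give nothing. The authors' values per peak are a fold enrichment (ratio), −log10 p, −log10 q and a score, the last being 10 times the −log10 q. They rank and describe the peaks of 1 list, and folds set side by side compare lists, not amounts of binding.

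The members and all lists and rules were chosen with earlier results of these data known. Named regions are the 6 windows with most shared peaks, empty runs of 3 or more windows, the 3 longest gaps per list, the 10 pairs with the highest lower fold, and the 5 strongest unshared and 5 widest peaks per list. Windows of 1 Mb were counted by summit. Spanned length replaced chromosome length. Chromosome 11 was compared with the 18 other autosomes by two-sided Fisher's exact tests. The last test of the family instead set its share of replicate 2's list against its share of replicate 1's (odds ratio 1.15). That odds ratio is a description, since it rests on the counts by which the chromosome was chosen. Benjamini-Hochberg adjustment ran over all 8 tests. These run over peaks, which are not independent replicates, and a chromosome is 1 of 19. The tests of the shared shares are also not free of the density by which the chromosome was chosen. Intervals are exact (Clopper-Pearson, 95%) and cover counting error only. Fragments over each summit were solved from the authors' fold and −log10 p, and in replicate 2's list 1 fragment weighed 0.416. All came out whole within 0.01. The genome's background, the lowest recovered, was 2.28 for replicate 1 and 2.07 for replicate 2. These are weighted units, in which 1 fragment counts 1 in replicate 1 and 0.416 in replicate 2. Protein-coding genes per chromosome came from RefSeq's GRCm38.p6 table, with none of its coordinates printed.

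Python 3.11.15, pandas 2.3.3, numpy 2.4.6, scipy 1.17.1, statsmodels 0.14.6 and matplotlib 3.10.9 were used, and the procedures were tested on simulated data. Alternatives were stricter q-values, other overlap rules, merged peaks, lists of equal length, other comparison chromosomes, shifted windows, other window thresholds and each list alone. Later ones left out the window from 33 to 34 Mb or peaks of high background, stratified by q, or moved the width and q thresholds.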

Additional observations from a re-analysis of the deposited data

How the results depend on the processing

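Of 48 recomputed values with a test, 26 kept their direction against the comparison and their side of the threshold, and of 40 without a test 17 moved little. The cause of the other changes was not tested. The 26 include the share of pairs higher in replicate 2 on the fragment scale, which fell from 63.5% to 35.7%. They pool differences that passed at first with others that had not passed and stayed so. The 26 thus do not tell how many of the passing differences held. At a −log10 q of 5 or more the shared shares were 37.1% and 62.0%, neither past the threshold, with 1.94 and 1.09 peaks per Mb, 17 and 9 dense windows, 7 dense in shared peaks, and 71.8% of pairs higher in replicate 2. At 10 or more they were 50.5% for replicate 1 (not past it) and 75.4% for replicate 2 (past it), 0.822 and 0.551 per Mb, 6, 4 and 1 dense windows, 80 empty windows in replicate 1, 76.6% of pairs and an odds ratio of 0.917 for the share of the lists. The pair and list values, 3 in all, turned direction against their comparison, the odds ratio for the lists being 1.15 with all peaks. Merging gave 31.0% and 66.9%, neither past the threshold, 2.65 and 1.23 per Mb, and 11 dense windows in replicate 2 and 8 in shared peaks. Summits within 200 bp gave 45.2% for replicate 2 and 5 dense windows, and overlap of 50% of the shorter peak gave 58.99%, and neither share passed. Lists of equal length gave 1.70 per Mb, 16 and 7 dense windows. With X and Y, replicate 2's share (62.2%) and replicate 1's strong peaks (23.7%) missed the threshold and replicate 2's strong peaks (29.95%) turned to an odds ratio of 0.966. Without dense windows the shares, 16.0% and 40.5%, were below the other autosomes' (odds ratios 0.881 and 0.900), not past the threshold. Without 2 windows of chromosome 13 replicate 2's broad peaks (16.1%) passed. A minimum of 3 summits gave 44 dense windows in replicate 1, and of 8 gave 9 in replicate 2 and 6 in shared peaks. Chosen after the data were seen: without 33 to 34 Mb, 60.7% shared in replicate 2, 23.3% strong and 7.85% broad in replicate 1; without high background, 27.7%; broad from 2 kb, 2.44%; −log10 q of 20 or more, 8.78%. These 6 missed the threshold. Counted in 1 list alone, without the other replicate, windows dense in peaks ranged from 17 to 29. No paired analysis was possible because the inputs, which bear the same numbers, had no values here and a single group remains. Depth limits the weakest peaks, which rest on 11 fragments in replicate 1.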

Other observations

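Joined across the lists, the peaks of chromosome 11 formed 473 sites. Both lists had 122 of them (25.8%), replicate 1 alone 269 (56.9%) and replicate 2 alone 82 (17.3%). The sites of both lists covered 130 kb, more than the 97.1 kb and 32.2 kb of the others. Sites within 5 kb of each other formed 325 chains, of which 253 were single sites and 32 had 3 or more, with 140 sites in them (29.6%). The longest ran from 33047076 to 33063081 (10 sites, 7 in both lists) and from 51405224 to 51420329 (10 sites, 3 in both lists). The chain from 97482379 to 97490839 had 6 sites and none in both lists. Sites and chains were not counted on the other autosomes, so whether these shares differ from theirs is not known.

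The proximal end carried the peaks of highest local background. At 3093064 to 3093388 the background was 19.4 times the genome's in replicate 1 and 13.2 times in replicate 2, with folds of 2.50 and 2.71, and the peak was shared. At 3035302 to 3035501 it was 19.8 times in replicate 1, with a fold of 2.15 and no partner.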
